A study of Rattus norvegicus with 16 samples.

Results

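The genes described here encode the proteins of the cytosolic ribosome, and they were followed in rats that received the nitrosamine NDEA (N-nitrosodiethylamine) or none, in liver and in bone marrow. They were chosen by name and by a count minimum. The name had to start with Rpl or Rps and a digit, or be Rpsa, Rplp0, Rplp1 or Rplp2. The row also needed at least 10 counts in at least 4 libraries. Of 32623 gene records, 106 fitted the name pattern and 66 were kept, 38 of the large subunit, 27 of the small subunit and Rplp0 of the ribosomal stalk, under 64 different names. Left out were 10 kinases named Rps6k, 15 copies with -ps or l after the number, Rps19bp1, which encodes a binding partner of a ribosomal protein, and 14 ribosomal protein rows under the count minimum. Among those 14, Rps6, Rpl8, Rpl7a, Rpl35a and Rplp2 were listed at 0 in every library and Rps19 had 13 counts in all. No row was named Rplp1. A row that carries the name of a ribosomal protein is therefore not always the row that takes its reads, and near-identical processed copies of these genes can share reads, so single levels are uncertain.

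The rats were female Big Blue rats, transgenic for a vector with the cII and lacI reporter genes, which all groups carried. They arrived at 6 weeks of age, had 1 week of acclimation, and were dosed by gavage with 0 (control) or 10 mg/kg/day (NDEA) on 28 consecutive days. Both tissues were collected 3 days later. Liver control, liver NDEA, marrow control and marrow NDEA each had 4 libraries, 16 in all, numbered 1 to 4 within a group. Whether a number in liver and in marrow stands for the same rat is not given in the labels, so p-values measure the spread between these libraries. Each dose group had 6 rats, so if every library of a tissue came from a different rat, some rats gave both tissues. The main fits across tissues treated all libraries as independent. In whole tissue, fewer cells of a type and less RNA per cell cannot be told apart.

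Every cell builds its ribosomes from ribosomal RNA and a fixed set of proteins, of which nearly all are used in a single copy per subunit. The messages for these proteins are among the most abundant of a growing cell, and most begin with a run of pyrimidines at the cap, the TOP motif, through which mTOR signalling and LARP1 set their translation. In liver they serve a steady output of plasma proteins, and in marrow they serve dividing precursors of red and white blood cells. Several free ribosomal proteins, above all Rpl5 and Rpl11 with the 5S RNA, also bind MDM2 and so touch the p53 response.

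Since most messages of this family start in a pyrimidine run, the start sites of 8 genes on which the results below turn are shown first. RefSeq promoters (build GRCr8) were found for 49 of the 66 genes by symbol and chromosome. Each line holds 15 bases before and 15 bases after the annotated start, 5′ to 3′ on the strand of the gene, with the longest run of C and T in capitals. The first 5 have a run of at least 8, and the last 3 do not.
Rpl19, chr10:83519049-83519078, plus strand: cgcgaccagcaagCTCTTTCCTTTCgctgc
Rps24, chr16:96502-96531, plus strand: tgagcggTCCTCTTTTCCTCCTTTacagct
Rps23, chr2:23814502-23814531, plus strand: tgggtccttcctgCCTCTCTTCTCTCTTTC
Rpl31, chr9:49143096-49143125, plus strand: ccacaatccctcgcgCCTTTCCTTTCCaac
Rps10, chr20:5700730-5700759, minus strand: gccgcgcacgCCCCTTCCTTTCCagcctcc
Rpl11, chr5:153560788-153560817, minus strand: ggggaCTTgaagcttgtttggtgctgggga
Rpl24, chr11:58128391-58128420, minus strand: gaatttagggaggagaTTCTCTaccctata
Rpl41, chr7:1563483-1563512, minus strand: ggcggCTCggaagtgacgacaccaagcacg

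A run of at least 8 pyrimidines lay within 15 bases of the start in 32 of the 49 genes (65.3%), against 11.4% of 27457 promoters of the same table. The median longest run was 10 bases, against 4 over all promoters. The letters CTTTCC, on either strand within 50 bases of the start, stood in 42.9% of the 49 and in 8.86% of all. CTTCCG, on either strand from 250 bases before to 50 after the start, stood in 55.1% and 17.4%; these 2 words can share bases at their ends. TATAAA over the same stretch stood in 14.3% of both. These are matches of letters at annotated starts, not measured start sites.

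Liver libraries held 5000844 to 6863592 counts and marrow libraries 2162182 (control 1) to 5705705. The reads come from the 3′ ends of transcripts, so counts were not divided by gene length, and levels are given in CPM (counts scaled to one fixed library total, after TMM scaling within the comparison). The 66 genes took 1.57%, 1.31%, 1.43% and 1.50% of all counts in liver controls 1 to 4 and 1.60%, 1.77%, 1.64% and 1.64% in liver NDEA. The liver groups did not overlap, and the ratio of their means was 1.14. In marrow the share was 6.57%, 4.45%, 3.48% and 4.68% in controls and 3.97%, 4.58%, 4.05% and 3.65% in NDEA, with a ratio of 0.85. The marrow groups overlapped, with control 1 the highest and control 3 the lowest of all 8. Chromosome MT genes took 16.2% to 20.6% of counts in liver controls and 20.1% to 22.4% in liver NDEA, a difference of 3.13 percentage points (exact two-sided permutation test, n = 4 each, p = 0.057, where the smallest possible p is 0.029). In marrow they took 6.41%, 8.65%, 13.0% and 7.24% in controls and 11.3%, 8.37%, 15.2% and 15.8% in NDEA, a difference of 3.83 points (exact permutation test, p = 0.17). Neither test of the MT share passed 0.05, and the ribosomal protein share was not tested. Of 10 hepatocyte markers 0 were at 0 in liver and 7 were at 0 in marrow.

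**Figure D1:**
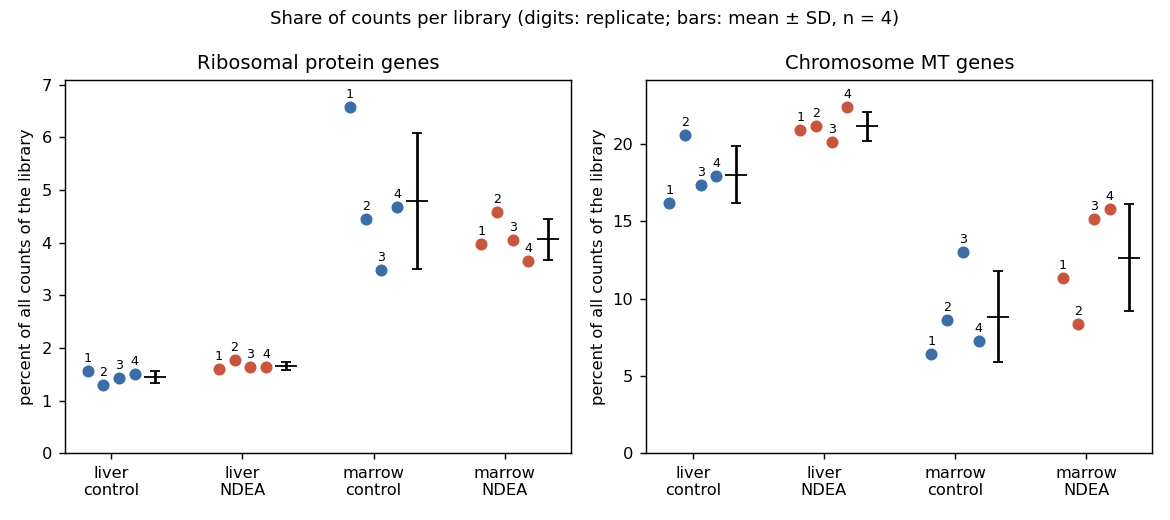
Percent of all counts taken by the 66 ribosomal protein genes (left) and by chromosome MT genes (right) in each of the 16 libraries; digits are replicate numbers and bars the mean ± SD of 4 libraries. Ribosomal protein genes take 1.31% to 1.77% in liver and 3.48% to 6.57% in marrow, where control 1 is the highest for these genes and the lowest for the MT share.

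Among untreated tissues, ribosomal protein messages were mostly lower in liver than in marrow, but not in step. Of 65 genes tested, 37 were lower in control liver, against 33.4% of all 10071 genes tested, and 5 were higher, against 32.8% (limma-voom, Benjamini-Hochberg adjusted p under 0.05). At an unadjusted p under 0.05, 39 were lower, against 34.7%. Differences were above 0 for 12 genes, against 49.6% of all genes, and the median log2 difference, liver minus marrow, was -0.69, against -0.02 for all genes. Scaling by library totals alone moved the median of all genes to -0.34 and the counts to 44 lower and 3 higher. The groups did not overlap for 28 genes that were lower in liver (29.0% of all genes) and 4 that were higher (29.8%).

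Rps24, a small subunit protein, had 1354, 867, 782 and 919.6 CPM in marrow controls 1 to 4 and 111, 80.6, 74.4 and 72.2 in liver controls. Every liver library lay far below every marrow library (log2 difference -3.51, SE 0.22, limma adjusted p = 1.72e-09). Rpl24, a large subunit protein at a bridge to the small subunit, had 2501, 3462, 5259.6 and 3773 CPM in marrow and 377, 307, 324 and 316 in liver (-3.46, SE 0.20, adjusted p = 1.16e-09). The log2 difference was -2.73 for Rps3, which lines the mRNA entry site, again without overlap and called. For Rpsa, the laminin receptor homologue of the small subunit, it was -2.48. The other direction held for Rpl39, a small protein of the nascent peptide tunnel, with 19.7, 16.6, 9.53 and 5.45 CPM in marrow and 77.1, 68.5, 84.0 and 111 in liver (2.97, SE 0.37, adjusted p = 3.55e-06). Rpl10, which joins the large subunit late in its assembly, had 136, 66.9, 14.8 and 51.6 CPM in marrow and 205, 196, 194 and 222 in liver (2.06, adjusted p = 2.72e-04). Rps13 (2.26), Rps2 (0.86) and Rpl32 on chromosome 4 (1.16) were also higher in liver, and Rps2 lost its call under library totals (adjusted p = 0.11). Rpl32 was called in 11 of 17 alternatives. Among others, it lost its call without liver control 3 (0.065), marrow control 3 (0.061) or marrow control 4 (0.13). The same held under library totals (0.084) and by limma-trend (0.098). Rpl41, the shortest of the family and the most abundant in liver, had 1198 ± 163 CPM in marrow and 1116 ± 96.6 in liver (SD, n = 4 each; -0.10, adjusted p = 0.60). Rplp0 (-0.62), Rpl3 (-0.91) and Rpl23 (-0.67) were among the genes called lower in liver, and Rpl23 lost its call without liver control 1 (0.054), liver control 2 (0.067) or marrow control 4 (0.055). Rpl5 (-0.33), Rpl11 (-0.39), Rpl26 (-0.35) and Rps23 (-0.51) did not pass.

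**Figure D2:**
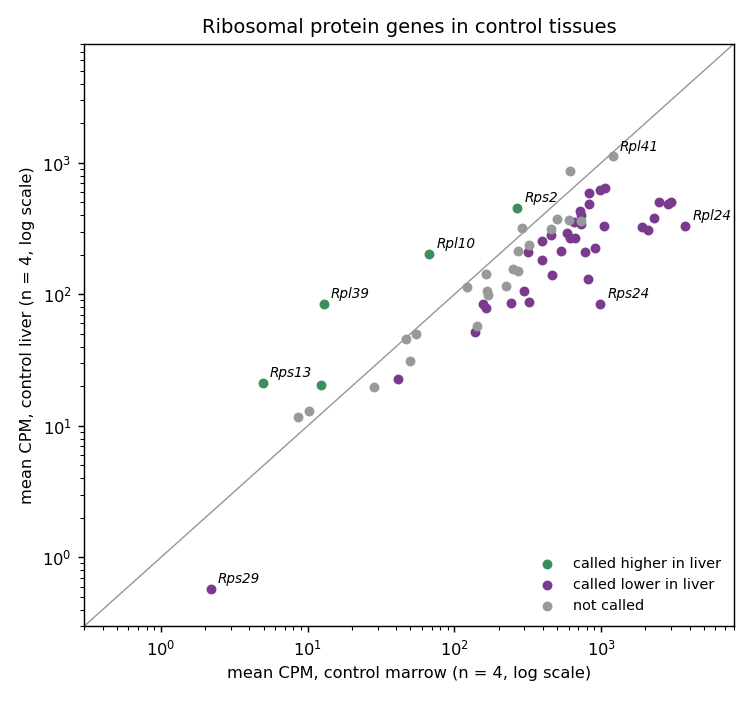
Mean CPM of each of the 65 genes tested in control marrow (x axis) and control liver (y axis), both on log scales, n = 4 each; the line marks equal levels. Most points lie below the line, among them the 37 called lower in liver, and the 5 genes called higher in liver lie above it.

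Levels within a tissue spanned a wide range, and the order differed between tissues. In control liver Rpl41 led with 1032 ± 93.8 CPM, then Rpl37a with 800.2 ± 86.0 and Rpl23a with 599 ± 30.9 (SD, n = 4). The ranges of Rpl41 and Rpl37a did not overlap, and neither did those of Rpl37a and Rpl23a. In control marrow Rpl24 led with 4149 ± 1213 CPM and Rps12, also among the highest, had 3175 ± 1399.7, so that these did not differ beyond their spread. At the low end, Rps4y2 had 10.8 ± 2.44 CPM in liver and 9.46 ± 6.89 in marrow. The rows named Rps29 and Rpl21 on chromosome X stayed under 2 CPM in every liver library and were not tested there.

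In liver 2 of 64 ribosomal protein genes tested, Rpl19 and Rpl41, rose with NDEA and 0 fell (limma-voom adjusted p under 0.05). Of all 9668 genes tested 2.87% were called higher and 3.74% lower, so the members' share of higher calls was near that of all genes. At an unadjusted p under 0.05, 5 were higher (9.27% of all genes) and 1 was lower (9.47%). Library totals alone gave 4 and 0 called, and moved the all-gene split from 277 higher and 362 lower to 390 and 239. Estimates were above 0 for 45 of 64, against 51.2% of all genes, and the median was 0.06, against 0.01 for all genes (0.17 and 0.12 with library totals). The groups did not overlap for 5 genes higher in NDEA (6.54% of all genes) and 1 lower (5.98%).

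Rpl19, a large subunit protein that reaches over to the small subunit, had 60.9, 48.9, 41.3 and 60.3 CPM in controls 1 to 4 and 96.1, 85.5, 72.9 and 107 in NDEA. The lowest NDEA library lay above the highest control (log2 fold change 0.77, SE 0.19, 1.70-fold, limma adjusted p = 0.011). Rpl41 had 1164, 967, 962 and 1037 CPM in controls and 1345, 1346, 1257 and 1333 in NDEA, again without overlap (0.36, SE 0.09, 1.28-fold, adjusted p = 0.015). Both calls were lost without liver control 3 (adjusted p = 0.060 for Rpl19 and 0.075 for Rpl41), with all 16 libraries in one fit (0.49 and 0.11), and with the MT share as a covariate (0.41 and 0.095), where 53 genes in all were called higher and 95 lower. Rpl41 also lost its call without NDEA 2 (0.054). Rps18, a small subunit protein, also had no overlap, with 279.8, 246, 250.1 and 269 CPM in controls and 363, 333, 353 and 286 in NDEA, and did not pass the test (0.35, adjusted p = 0.073). Rps16 (0.23, adjusted p = 0.21) and Rpl15 (0.19, adjusted p = 0.36) had no overlap either, and Rpl10 was the gene that lay lower in every NDEA library (-0.18, adjusted p = 0.48); these 4, Rps18 included, were picked here for that pattern.

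The other named genes of liver did not pass. The highest estimates after Rpl19 were Rps24 with 0.37 and Rpl32 on chromosome 4 with 0.36, and the lowest were Rpl26 with -0.28, Rps2 with -0.28 and Rps27a on chromosome 14 with -0.28. Rps27a makes its protein as a fusion with ubiquitin. Rpl5, which with Rpl11 and the 5S RNA can bind MDM2, was at 144 ± 30.3 CPM in controls and 144 ± 12.6 in NDEA, Rpl11 at 338 ± 42.4 and 386 ± 27.7, and Rpl23 at 449 ± 44.4 and 445 ± 82.5 (SD, n = 4 each). Their log2 fold changes were 0.01, 0.19 and -0.04, with adjusted p of 0.98, 0.38 and 0.92. Rplp0, the base of the stalk that recruits elongation factors, was at 234 ± 30.7 and 269 ± 40.2 CPM (0.19, adjusted p = 0.48). Rpl3, next to the site of peptide bond formation, had 0.13, Rps3 0.03, Rpsa -0.01 and Rps23 -0.07.

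Lists of genes around the ribosome are read against the shares of all liver genes given above, 2.87% called higher and 3.74% lower, and 9.27% and 9.47% at an unadjusted p under 0.05. Of 26 translation factors tested, 0 rose and 1 fell (median -0.04): Eif4b, a helper of the helicase of translation initiation, from 131 ± 13.8 to 91.7 ± 11.7 CPM (-0.52, limma adjusted p = 0.036). Among 17 other genes with TOP messages, a list that also holds Eif4b, Vim rose (1.37, adjusted p = 5.07e-04); it encodes the intermediate filament vimentin, and the median of the list was -0.03. Among 13 controllers of ribosomal protein synthesis 0 rose and Eif4ebp2, an inhibitor of cap-dependent initiation, fell from 269 ± 7.12 to 171 ± 8.10 CPM (-0.65, adjusted p = 5.73e-04), with a list median of 0.10. None of 36 ribosome biogenesis genes (median 0.25, 27 estimates above 0, 4 at an unadjusted p under 0.05) and none of 71 mitochondrial ribosomal protein genes (median 0.06, 6 at an unadjusted p under 0.05) passed. In the same libraries the collagen Col3a1 (0.78) and Dcn (1.16) rose, and the summed level of 8 stellate cell and fibroblast markers was 202 to 313 CPM in controls and 402 to 469 in NDEA, with Col1a2 at 0. Of 10 hepatocyte markers 3 rose and 5 fell, with a summed level of 106364 to 134793 and 98952 to 119165 CPM. The part of these cells in the values of Rpl19 and Rpl41 was not tested.

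In marrow no ribosomal protein gene passed the test, most had estimates below 0 with NDEA, and their levels differed widely between libraries of the same group. Of 65 genes tested 0 were called higher and 0 lower by limma-voom, as were 0 of all 9239 genes in each direction (percent called 0). At an unadjusted p under 0.05, 41 of the 65 were lower, against 8.62% of all genes, and 3 were higher, against 5.84%. By limma-trend these were 43 and 3, with 0 called. Estimates lay below 0 for 52 genes and above 0 for 13 (44.3% of all genes were above 0), and the median was -0.84, against -0.10 for all genes. Leaving out single libraries gave medians from -1.03 (without NDEA 2) to -0.59 (without control 1), and 30 to 43 genes lower at that p. For the large subunit 33 of 37 estimates lay below 0 (median -0.90), for the small subunit 18 of 27 (median -0.25); the difference between subunits was not tested. In 2 genes (3.08% of members) the NDEA libraries lay below every control, against 3.03% of all genes, and in 1 (1.54%) above, against 2.57%. The 2 were Rps25 and Rps13, and the 1 was Rps29. Rps13 and Rps29 each passed a filter only through the group where they were high, so their lack of overlap carries no weight.

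**Figure D3:**
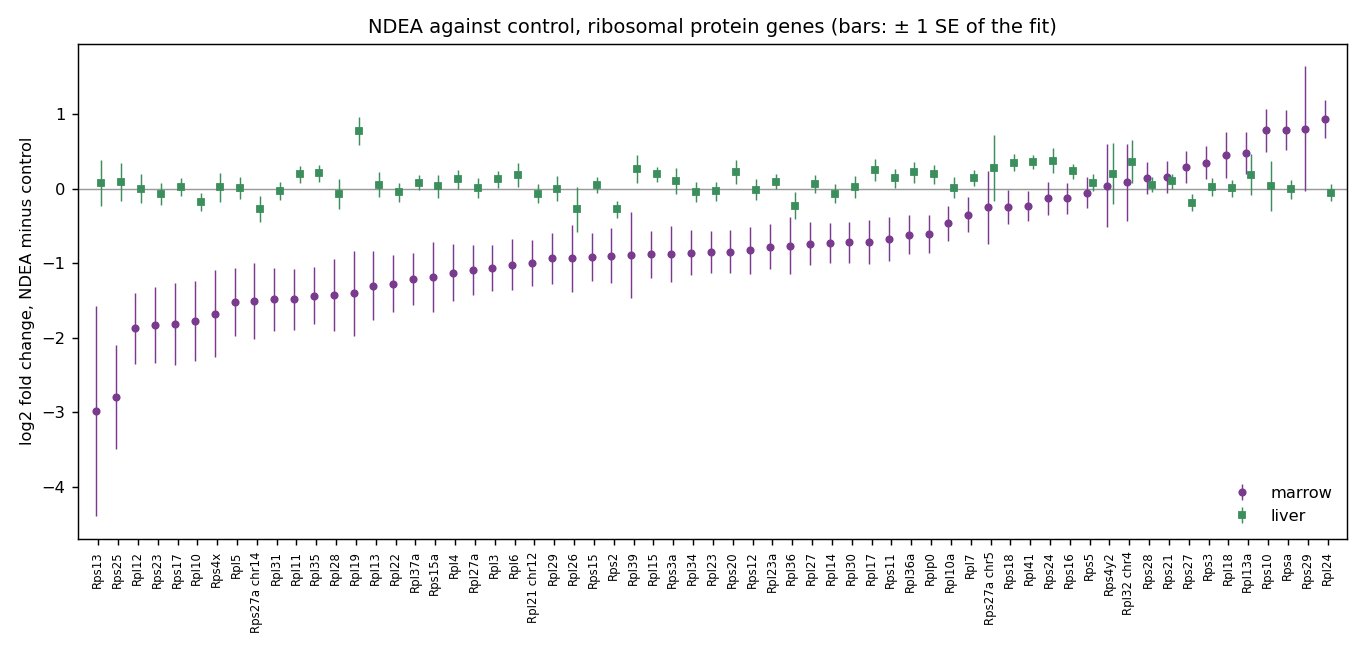
Log2 fold change, NDEA minus control, of ribosomal protein genes in marrow (circles, 63 genes drawn, ordered by value) and liver (squares, 62 genes drawn), with bars of ± 1 SE of the limma fit. Liver estimates lie between -0.28 and 0.77; marrow estimates run from -2.98 to 0.93, and none of the marrow estimates passed the adjusted threshold.

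Levels differed more between marrow libraries than between liver libraries. Over the 8 marrow libraries the median member had a highest value 4.40-fold its lowest, against 1.44-fold in liver, and 37 members spanned over 4-fold, against 1 in liver. The median SD of log2 CPM was 0.74 for members in marrow and 0.39 for the 827 genes with a level between 134 and 706 CPM, the middle range of the members. In liver these SDs were 0.20 and 0.24. Among the 4 controls alone the median member spanned 2.75-fold in marrow and 1.38-fold in liver.

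Single libraries stood out for these genes. Marrow control 1 held the highest value of 47 of the 65 members, against 19.5% of all 9239 genes tested, and NDEA 4 the lowest of 39, against 26.0%. In liver, control 2 held the lowest value of 32 of 64, against 10.8% of all genes. The median deviation of the members from their own mean, in log2 units, was 1.04, 0.42, -0.29 and 0.45 in controls 1 to 4 and -0.22, 0.11, -0.59 and -1.05 in NDEA 1 to 4. Set beside the MT shares, the order of the 4 controls by this deviation was the reverse of their order by MT share, and the same held among the 4 NDEA libraries. The number of genes detected was 11054 to 11699 in marrow controls and 10920, 11037, 10144 and 9101 in NDEA 1 to 4. With the MT share as a covariate the median of the members was -0.21 and 10 were lower and 1 higher at an unadjusted p under 0.05. NDEA 3 and 4 have the lowest deviations given above, so leaving them out weakens the median by construction and leaves fewer libraries. Without NDEA 3 and 4 the median was -0.38, and 6 were lower and 0 higher. No member was called in either fit.

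**Figure D4:**
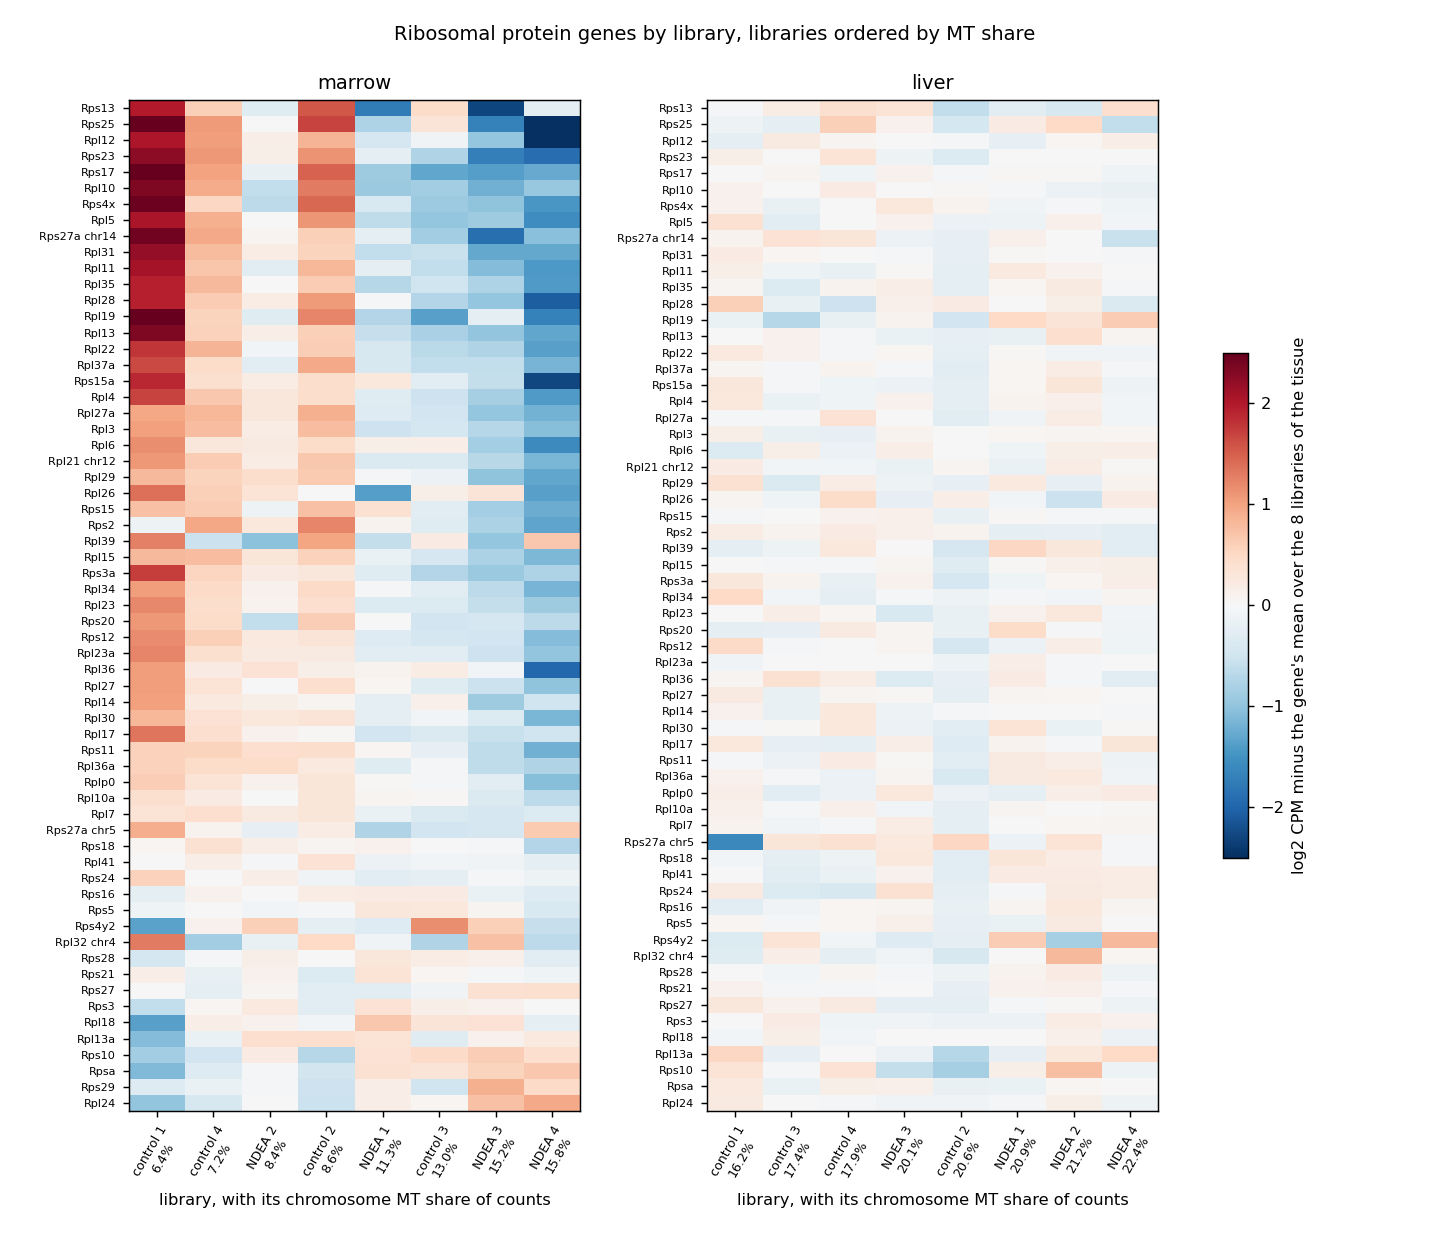
Log2 CPM of each member drawn minus its mean over the 8 libraries of the tissue, in marrow (left) and liver (right), with libraries ordered by their chromosome MT share, printed under each; colours saturate at 2.5. In marrow most rows pass from high in control 1 (6.4%) to low in NDEA 4 (15.8%) with control 3 (13.0%) among the NDEA libraries, the bottom rows run the other way, and liver shows little of either.

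Members whose marrow estimates were lowest came from both subunits. Rps25, a small subunit protein needed by some internal ribosome entry sites, had 99.7, 54.1, 20.8 and 35.2 CPM in controls 1 to 4 and 9.50, 16.4, 4.78 and 1.38 in NDEA, with no overlap (log2 fold change -2.79, SE 0.69, limma adjusted p = 0.25). Rps13 was low throughout, at 5.51 ± 3.01 CPM in controls and 0.831 ± 0.831 in NDEA (-2.98, SE 1.41, adjusted p = 0.34). Only its controls reached the CPM minimum of the test, so the filter favoured an estimate below 0. Rpl12, at the base of the stalk, had 279.9, 125, 64.8 and 142 CPM in controls and 51.7, 78.0, 35.1 and 10.9 in NDEA. Its control 3 fell inside the NDEA range (-1.88, SE 0.48, adjusted p = 0.25). Rps23, a protein of the decoding centre, had 598, 275, 74.2 and 268 CPM in controls and 106, 139.9, 38.0 and 33.4 in NDEA (-1.83, SE 0.51, adjusted p = 0.25). Control 3 was again below NDEA 1 and 2, and control 1 stood 8.06-fold above control 3. Rpl31, which sits at the rim of the peptide exit tunnel, had 1894, 603, 279.9 and 716 CPM in controls and 267, 469, 168 and 169 in NDEA (-1.49, SE 0.43, adjusted p = 0.25), with control 1 far above the rest and control 3 inside the NDEA range. Without control 3, Rps25, Rpl12 and Rps23 were all called lower, as part of 27 members called lower and 3 higher, beside 114 genes higher and 209 lower in all.

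None of the genes named by role in marrow was called. Rpl5 had 534, 278, 65.7 and 239 CPM in controls and 82.5, 127, 69.4 and 43.7 in NDEA, and Rpl11 had 1373, 574, 210.1 and 524 and 278, 269.5, 153 and 119.8. In both, control 1 was the highest and NDEA 4 the lowest, and control 3 lay among the NDEA libraries (log2 fold changes -1.52 and -1.48, adjusted p = 0.25 for each). Rpl23 had 922 ± 398 CPM in controls and 491 ± 144 in NDEA (-0.85, adjusted p = 0.25), and Rpl26 31.5 ± 15.2 and 16.4 ± 10.3 (-0.94, adjusted p = 0.35). The estimate was -1.06 for Rpl3 and -0.61 for Rplp0, neither called. The row Rps27a on chromosome 14 had -1.51 and that on chromosome 5 -0.25.

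A smaller set ran the opposite way. Rpl24 had 2815, 3832, 5739 and 4208 CPM in marrow controls and 6226, 5583, 9284 and 10712 in NDEA, where NDEA 4 and 3 were the highest and control 1 the lowest (0.93, SE 0.26, adjusted p = 0.25). Rpsa had 1204, 1898, 3271 and 2081 CPM in controls and 3372, 2544, 3829 and 4155 in NDEA (0.79, SE 0.27, adjusted p = 0.25). In both genes control 3 overlapped the NDEA libraries. The row named Rps29 had 2.51, 2.12, 2.18 and 2.86 CPM in controls and 3.71, 3.19, 6.44 and 4.75 in NDEA. That was a few counts per library with no overlap (0.80, SE 0.83, adjusted p = 0.65). The row reached 10 counts in 6 libraries, among them every marrow NDEA library, and would not meet the count minimum without these. Its lack of overlap therefore carries no weight. Rps10 stood at 45.8 ± 22.0 and 74.9 ± 8.87 CPM (0.78, adjusted p = 0.26). Rps3 (0.35) and Rps27 (0.29) had smaller estimates above 0.

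**Figure D5:**
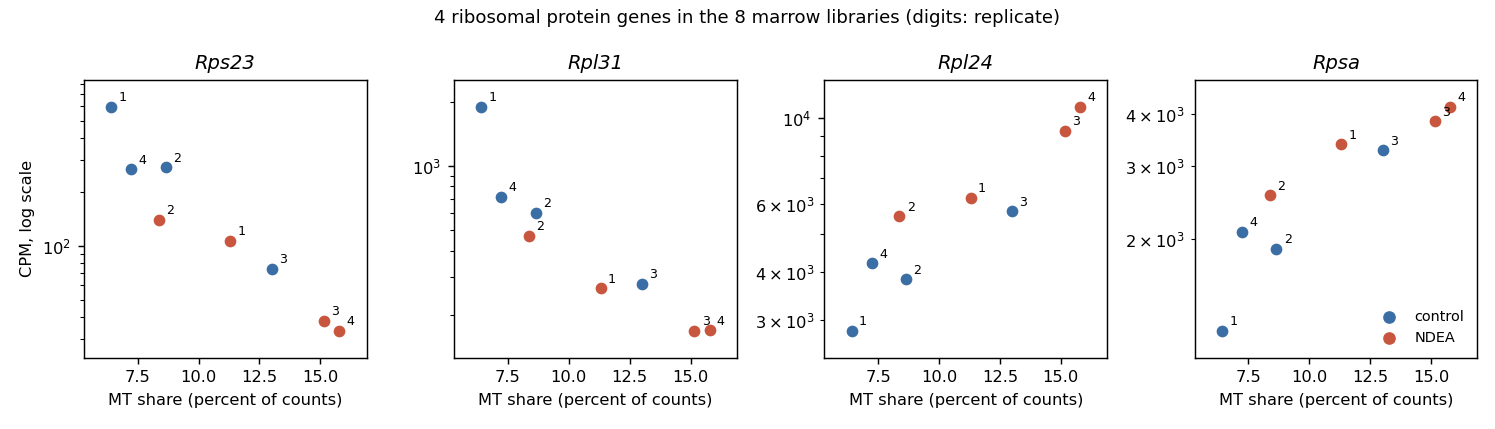
CPM (log scale) of Rps23, Rpl31, Rpl24 and Rpsa in the 8 marrow libraries against each library's MT share of counts; digits are replicate numbers, blue is control and red NDEA. Rps23 and Rpl31 are highest in control 1, Rpl24 and Rpsa lowest there, and control 3 lies between the NDEA libraries in all 4 panels.

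The contrast between these members does not depend on scaling, since it can be read within a library. Rpl24 and Rps23 have marrow estimates of opposite sign in these same libraries (0.93 and -1.83). Their ratio restates that contrast and is no further support for it. The ratio of Rpl24 counts to Rps23 counts was 1.73 to 2.69 in all 8 liver libraries. In marrow it was 4.70, 14.0, 77.3 and 15.7 in controls 1 to 4 and 58.5, 39.9, 244 and 321 in NDEA 1 to 4. Rpl24 alone took 4.73%, 8.85%, 14.9% and 9.08% of the counts of the 66 genes in marrow controls and 15.4%, 12.7%, 22.5% and 27.4% in NDEA. Without Rpl24 the others took 6.26%, 4.06%, 2.96% and 4.26% of all counts in controls and 3.36%, 4.00%, 3.14% and 2.65% in NDEA. By the pyrimidine run shown above, the median marrow estimate was -0.91 for the 32 members with a run of at least 8 and -0.88 for the 17 with a shorter one; the difference was not tested.

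In the lists around the ribosome 0 marrow genes were called. Of all marrow genes tested, 44.3% had estimates above 0, and at an unadjusted p under 0.05 8.62% were lower and 5.84% higher. The translation factors had a median of -0.26 over 26 tested (19 below 0, 8 at an unadjusted p under 0.05), the other TOP genes -0.49 over 17 (12 below 0, 7 at that p), and chaperones of nascent chains -0.40 over 12 (10 below 0, 5 at that p). Ribosome biogenesis genes had a median of 0.05 over 34, and mitochondrial ribosomal protein genes, which make the separate ribosome of mitochondria, -0.19 over 67. Summed, the mitochondrial ribosomal proteins lay at 2628 to 2765 CPM in controls and 2658 to 2882 in NDEA. Sums of cell type markers, given beside these values, differed between libraries too. All 7 skeletal muscle genes tested had estimates below 0 (median -2.95), and the 8 matched had a summed level of 149, 162, 555 and 225 CPM in controls 1 to 4 and 56.8 to 75.3 in NDEA, with none at 0. T and NK cell markers summed to 65.0 to 168 and 24.1 to 81.3 CPM (6 of 7 below 0, Gzmb at 0), and stellate cell and fibroblast markers to 2313 to 5486 and 1198 to 3108 (5 of 5 below 0, Col1a2 and Lrat at 0). Erythroid markers, a sum of 132106 to 198958 in controls and 120207 to 158963 in NDEA, had 5 of 8 below 0 with Gata1 at 0, and neutrophil markers, 21871 to 32341 and 22135 to 37114, had 6 of 10 with Ltf at 0. B lineage markers had 3 of 4 above 0, with sums of 291 to 420 and 309 to 440 CPM and Pax5 at 0. Stem and progenitor markers summed to 185 to 218 and 206 to 227 CPM (3 of 5 below 0). Macrophage markers summed to 887 to 1045 and 958 to 1192 CPM (4 of 7 below 0, Marco and Vsig4 at 0). Below 0 were also 5 of 6 megakaryocyte and 5 of 7 marrow stroma and bone markers. Of the muscle sums the highest was control 3, a library low for most ribosomal proteins. The part of these cells in the ribosomal protein values was not tested.

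The difference between the liver effect and the marrow effect of NDEA was fitted over all 16 libraries, as the interaction of treatment with tissue. Rpl41 was the single member of 66 called, with a liver effect above its marrow effect (difference in log2 fold change 0.65, SE 0.17, limma adjusted p = 0.048). Over all 11261 genes 2.07% were called in that direction and 0.213% in the other, where 0 members were. The call was lost in 17 of 25 alternatives, and over all 25 the limma adjusted p ran from 0.016 to 0.12. In marrow Rpl41 had 1214, 1567, 1166 and 1368 CPM in controls and 1103, 1191, 1145 and 1039 in NDEA (-0.24, adjusted p = 0.57) and the lowest SD of log2 CPM of the 65 members tested there, 0.19. At an unadjusted p under 0.05, 43 members had the larger value in liver (13.3% of all genes) and 3 in marrow (3.51%), and 55 of 66 differences were above 0 (62.4% of all genes) with a median of 0.88, against 0.32 for all genes. Rps25 came next and was not called, with a difference of 2.98 (SE 0.80, adjusted p = 0.050). Leaving out marrow control 3 gave 28 members called one way and 2 the other, and leaving out marrow NDEA 2 gave 12 and 1. Rpl24 (-0.93, adjusted p = 0.10) and Rpsa (-0.73, adjusted p = 0.23) had the lowest differences and were not called.

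Rows outside the rule show how much of the family the names miss. Among 20 rows described as ribosomal proteins under other names and tested in liver, 0 were called and the median was 0.12; among 21 in marrow 0 were called and the median was -0.62. The row described as 40S ribosomal protein S29 (LOC108350501, chromosome 6) held 73155 counts over the 16 libraries and had 893 ± 184 and 613 ± 239 CPM in marrow controls and NDEA, far above the row named Rps29, with an estimate of the opposite sign (-0.62, adjusted p = 0.33). A P1-like row (LOC100360522, chromosome 8), the nearest to Rplp1, had 178 ± 24.7 and 202 ± 6.41 CPM in liver controls and NDEA and 185 ± 193 and 39.2 ± 15.0 in marrow (-1.63, adjusted p = 0.25). The copy Rps10l1 held 68484 counts against 3354 for Rps10. In marrow it had 1355 ± 271 and 1889.8 ± 113 CPM, with every NDEA library above every control (0.50, adjusted p = 0.30). Rps27l, a paralogue of Rps27 known as a p53 target and left out by the rule, rose in liver from 196 ± 17.0 to 524 ± 47.6 CPM without overlap (1.41, limma adjusted p = 1.67e-08), the single copy called. Rps27 itself had -0.19 there (adjusted p = 0.42). In marrow Rps27l was at 56.2 ± 22.0 and 33.1 ± 16.5 CPM (-0.80, adjusted p = 0.37).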

How the data were processed

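Counts per gene from QuantSeq 3′ FWD libraries were deposited by the authors as one table of raw counts, not normalized; STAR and DESeq2 are named in the submitters' processing notes, with no version; genome build, annotation and counting settings: not given in the sources used here. Of its 32623 gene records, 2127 had a description split by commas and were rejoined to 16 whole counts. Each control-NDEA pair of groups, and the control groups of both tissues, was fitted with limma-voom (limma 3.58.1, R 4.3.3) on 8 libraries, and the treatment-by-tissue term on all 16, with TMM scaling (trims 0.3 and 0.05). Genes tested had 15 counts in all and, in 4 libraries or more, the CPM that 10 counts give at median depth. Adjusted p is Benjamini-Hochberg over all genes tested, two-sided, called under 0.05. The table holds other text cells, so its columns were not declared as plain counts and edgeR was not used; limma-trend was the other test. The chromosome MT shares were compared by an exact permutation test (SciPy 1.17.1), and the ribosomal protein shares were not tested.

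The members and lists were chosen with earlier results of these data known. Named genes were: members called (up to 5 a direction); the 3 highest and 3 lowest fold changes and levels per tissue; Rplp0, Rpsa, Rpl3, Rpl5, Rpl11, Rpl23, Rpl26, Rps3, Rps23 and Rps27a in any case; and called genes of other lists, up to 3 a list and direction. Rpl15, Rps16, Rps18, Rps10, Rps27, Rpl31 and the copies were named after their values were seen. Values of 2 genes that the rule names are not reported here, though counts and medians include them. The steps were tested on simulated counts, with the same dispersion for every gene and libraries drawn independently. That setting lacks the wider spread of the marrow members and their joint shifts by library, so it cannot speak for them. No 2 libraries of a group were alike (chi-square per gene at least 13.2 over 24 pairs). Alternatives were other scalings, filters and weights, leaving out each library, chromosome MT genes or the MT share, and the replicate number as a block. Few counts limit the precision for low genes, most of all in marrow control 1.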

Additional observations from a re-analysis of the deposited data

Results flagged for a closer look

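In 4 of 84 sets of 4 libraries, 1 library stood outside the other 3 by Dixon's test, and chance alone gives about 1 in 20. All 4 were in liver NDEA. Rpl32 on chromosome 4 was at 38.0 CPM in 1 library, where the others had 20.3 to 22.2 CPM. Rps2 was at 419 CPM, where the others had 319 to 331 CPM. Rpl41 was at 1257 CPM, where the others had 1333 to 1346 CPM, and this lowest library was still above every control. Rps23 was at 123 CPM, where the others had 132 to 133 CPM.

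The effect of NDEA on Rpl41 differed between tissues by the treatment-by-tissue term, by 0.65 on the log2 scale (limma adjusted p = 0.048 over 11261 genes). The call was kept in 8 of 25 alternatives.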

How the results depend on the processing

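Of 19 genes followed for NDEA in liver 9 kept call and sign in every alternative, as did 8 of 19 in marrow, 3 of 12 between tissues and 12 of 20 in control liver against marrow. Signs changed for 8, 1, 1 and 2 of these genes, 0 of them called. In liver 4 members were called higher with library totals, 0 with the MT share as a covariate, 0 with all 16 libraries in one fit, and 0 to 3 when a library was left out (0 without control 3, 1 without NDEA 2). With the MT share as a covariate Rps27a on chromosome 14 (0.067), Rps27a on chromosome 5 (-0.63) and Rpsa (0.22) changed sign in liver; the other changes of sign were of estimates within 1 SE of 0. In marrow all 16 libraries in one fit gave 1 member higher and 3 lower, beside 12 and 57 of all genes, and leaving out a library gave 0 to 3 higher and 0 to 27 lower, above 0 only without control 3. Between tissues the count above 0 was 0 by median of ratios, 0 with TMM without ribosomal protein genes, 0 by limma-trend (41 at an unadjusted p under 0.05) and 6 with quality weights, and leaving out a library gave 0 to 28 above and 0 to 2 below. In control liver 3 members were higher with library totals. The cause was not tested. Deviations of same-numbered libraries correlated at -0.03 to 0.06, and not every library correlated best with its own number. Taken over all genes, most of them noisy, this check cannot exclude that equal numbers share a rat or handling. Whether replicate numbers pair the libraries is therefore not settled. With the replicate block 1 member was higher and 29 lower in marrow (109 and 180 of all genes), and 11 above and 1 below between tissues; in liver and in control tissues the block kept member counts within 1.5 times.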
